A study of Drosophila melanogaster with 4 samples.

Results

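The 2 Hox gene complexes of *Drosophila melanogaster* held 1 of the 3053 peaks in the deposited list of binding sites for Ultraspiracle (Usp). The deposited score of that peak was among the highest on the chromosome arms, though the background behind the score is not known. The complexes were taken as fixed intervals of arm 3R in FlyBase release 5, from 2480000 to 2840000 for the Antennapedia complex (360 kb) and from 12480000 to 12800000 for the bithorax complex (320 kb). A peak was counted in a complex if its midpoint lay in the interval. This rule used position alone and no measured value, though the complexes were chosen with earlier results of these data known. The Antennapedia complex held 1 peak, the bithorax complex held 0, and the rest of 3R held 758.

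Chromatin came from whole wandering larvae of the third instar, labelled as strain USP-GFP with genotype PBac{y[+]-attP-3B}VK00033 and a transgene of the USP genomic coding region. Flies of *y; bw cn sp* appear in the protocol text. Larvae were reared at 25 °C and cross-linked for 15 min in 1.8% formaldehyde, and sex was labelled unknown. There were 2 ChIP libraries, precipitated with a rabbit polyclonal antibody to GFP, and 2 input libraries of the same strain and stage, all with the transgene. The authors' peak list is 1 for the whole series and gives a score for each peak but no value per library, so no value below has a replicate error and the sequencing depth is unknown. The sources used here do not give the state of the usp gene at its own locus, nor whether the replicates were separate cultures.

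Hox genes encode homeodomain transcription factors that give each body segment its identity, and in flies they lie in a pair of clusters whose gene order follows the order of their domains along the body. Polycomb and trithorax proteins keep each cluster silent or active segment by segment after the embryo has set the pattern. Usp is a nuclear receptor related to the retinoid X receptors of vertebrates, and it pairs with EcR, the receptor for ecdysone. The dimer binds DNA and responds to 20-hydroxyecdysone, the steroid whose pulses drive moulting and the onset of metamorphosis, which wandering larvae are about to enter.

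The genes at stake were listed by name and order from a RefSeq table on Release 6, in which all 8 Hox genes were found by symbol. Along 3R the Antennapedia complex ran in the order lab, pb, Dfd, Scr and Antp. The gene lab (labial) acts in the head, pb (proboscipedia) in the mouthparts, Dfd (Deformed) in the maxillary and mandibular segments, Scr (Sex combs reduced) in the labial and first thoracic segments, and Antp (Antennapedia) in the thorax. From lab to Antp the table held 20 protein-coding genes, 16 long non-coding RNA genes and 2 microRNA genes, mir-993 and mir-10. Of the 15 protein-coding genes that are not Hox genes in this list, 7 were Ccp84A genes, which encode cuticle proteins, and 1 was Edg84A, a cuticle protein gene named for its dependence on ecdysone. Others were zen and zen2, diverged homeobox genes of the early embryo, bcd, the maternal determinant of the head end, ftz, a pair-rule segmentation gene, and Ama, which encodes a cell adhesion protein.

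The bithorax complex ran in the order Ubx, abd-A and Abd-B. Ubx (Ultrabithorax) acts in the posterior thorax and the first abdominal segment, abd-A in the middle of the abdomen, and Abd-B in its hind segments and the genitalia. From Ubx to Abd-B the table held 6 protein-coding genes, 7 long non-coding RNA genes and 2 microRNA genes. The non-coding genes included bxd, from the regulatory region beside Ubx, and the iab transcripts and microRNAs from the intergenic region between abd-A and Abd-B.

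Peaks were not assigned to single genes, because the peak coordinates are in release 5 and the gene table is in Release 6. No Hox gene overlapped another in the table. A single peak can therefore lie within at most 1 of them, and provided that the intervals cover these genes, at least 7 of the 8 Hox genes held no Usp peak in the list. For Ubx, abd-A and Abd-B this covers all 3 genes and the sequence between them. The share of all genes without a peak was not worked out, so the count of 7 shows no trait of Hox genes.

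The bithorax complex was empty. Its 320 kb held 0 peaks, a density of 0 per Mb against 28.0 per Mb on the rest of 3R, where the same length held 9.0 peaks on average. With 3 peaks taken as the limit for a count of 0, the density would be 9.38 per Mb, 2.99-fold lower than the rest of 3R. The 95% interval of the ratio given next allows a smaller deficit than this. By a two-sided exact binomial test of the counts given the lengths, the density was below that of the rest of 3R (ratio 0, 95% interval 0 to 0.413, p = 0.00026, adjusted over 3 density comparisons p = 0.00078). The limit of 3 peaks, the p-values and the 95% intervals cover only the counting error of independent peaks. Peaks on 3R were clustered, as given below, so the true error is larger.

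The Antennapedia complex was nearly so. Its 360 kb held 1 peak, or 2.78 per Mb, against 28.0 per Mb on the rest of 3R, where the same length held 10.1 peaks on average. The ratio was 0.0992 (95% interval 0.00251 to 0.554, two-sided exact binomial test, p = 0.0011, adjusted p = 0.0016). Its peak covered 0.119% of the interval, while peaks covered 1.22% of the rest of 3R. The complexes could not be told apart in density, at 2.78 per Mb in the Antennapedia complex and 0 in the bithorax complex (exact binomial test, p = 1, adjusted p = 1), where 1 peak in all leaves no power to find a difference.

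The exact tests take each peak as independent, but 80.9% of the other 3R peaks had another peak within 5 kb. With peaks within 5 kb joined into regions, the bithorax complex held 0 regions and the Antennapedia complex 1, against 9.79 regions per Mb on the rest of 3R. Neither complex then passed the exact test on its own (bithorax adjusted p = 0.25, ratio 0, 95% interval 0 to 1.19, and Antennapedia adjusted p = 0.41, ratio 0.284, 95% interval 0.00716 to 1.59). In the bithorax interval 3.13 regions were expected, and 0, the lowest possible count, gave an unadjusted exact p of 0.082. No bithorax deficit could therefore have passed with regions joined at 5 kb. Pooled over 680 kb, a comparison added after the counts were seen, the complexes had 1 peak against an average of 19.0 on the same length of the rest of 3R (ratio 0.0525, 95% interval 0.00133 to 0.293, exact p = 2.3e-07). This p-value takes peaks as independent too, and no windows were compared with the pooled intervals. In joined regions the pooled comparison gave 1 against 6.66 (ratio 0.150, 95% interval 0.00379 to 0.844, exact p = 0.026). The call was lost with regions joined and the intervals widened by 20 kb (ratio 0.269, exact p = 0.056) and in the top 25% of arm peaks by score (ratio 0.209, exact p = 0.098).

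Windows without peaks were also found elsewhere on 3R. Of 82 adjoining windows of 320 kb on 3R that did not touch a complex, 4 (4.88%) held no peak, as the bithorax complex did. Of windows started every 10 kb along 3R, which overlap each other, 11.1% held none, and of 289 adjoining windows on the 4 large autosomal arms 10.7% held none. For the Antennapedia complex, 11 of 73 windows of 360 kb (15.1%) held at most 1 peak, as did 16.6% of windows started every 10 kb and 17.1% of 257 windows on the autosomal arms. Among the adjoining 3R windows, the median was 6 peaks at either length, and the fullest held 44 at 360 kb and 43 at 320 kb. The counts of both complexes thus lay at the low end of the arm and were shared with other windows of it.

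**Figure D1:**
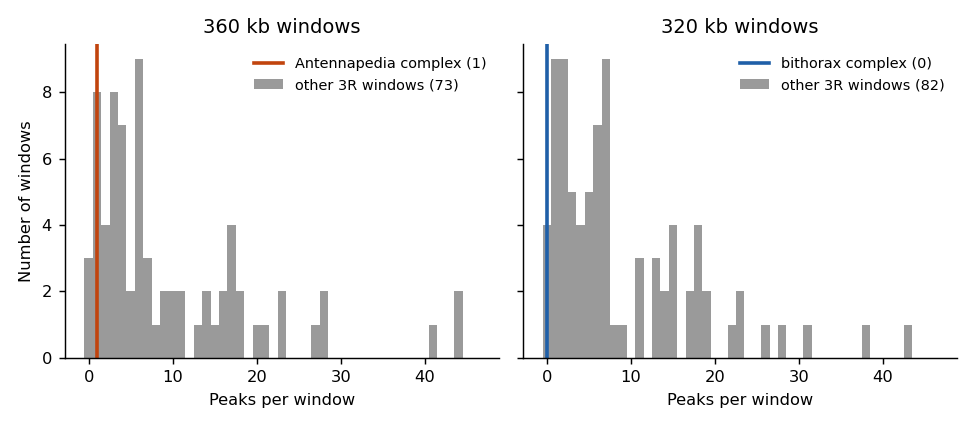
Number of Usp peaks per window (horizontal axis) and number of adjoining 3R windows with that count (vertical axis), for 360 kb windows with the Antennapedia complex marked by a line (left) and for 320 kb windows with the bithorax complex marked (right). The lines stand at 1 and at 0 peaks, where 8 and 4 other windows stand as well.

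The stretch without a peak around the bithorax complex was longer than the complex itself. It ran from 12275366 to 12808842 on 3R, a length of 533 kb, and ranked 4 by length among the 758 stretches between neighbouring 3R peaks, whose median was 1.34 kb. The longest were 707, 706 and 641 kb. Of the stretches on all chromosome arms, 27 of 2964 were at least as long. An empty interval of 320 kb must lie in a stretch of at least 320 kb. On 3R such stretches ran only down to rank 23, at 323 kb. The high rank of the bithorax stretch thus follows in large part from the empty interval and is not a separate finding. The complex took up 60.0% of its stretch and lay near the high end of it. At the low end, 205 kb of sequence without a peak separated the complex from the nearest peak, 12274536 to 12275365, which was 830 bp wide with a score of 18.9. At the high end the distance was 8.84 kb, to a peak from 12808843 to 12809054 with a score of 8.75.

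That peak opened a small cluster of 5 peaks from 12808843 to 12814188, which had scores of 8.75 to 14.8. The cluster lies just outside the interval, beyond the Abd-B end if the complex runs in the same direction in both releases. The interval's end decides whether it counts. Widened by 20 kb at each end, the bithorax interval took in all 5, and its density became 13.9 per Mb against 27.9 per Mb on the rest of 3R (ratio 0.498, 95% interval 0.161 to 1.17, exact binomial test, adjusted p = 0.15). The deficit then no longer passed. The same widening left the Antennapedia complex at 1 peak.

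The Antennapedia complex was bounded by longer distances on both sides. The stretch before its peak ran from 2257989 to 2690723, a length of 433 kb and the rank of 12 among the 758 on 3R, with 222 kb of it outside the interval. The stretch after it ran from 2691152 to 2901377, a length of 210 kb and the rank of 43, with 61.4 kb outside the interval. Were the peak not there, the stretch over the complex would have been 643 kb, the third longest on 3R. The interval would then be empty, and the stretch over it could be no shorter than 360 kb. That rank too would thus follow in large part from the empty interval. Inside the interval, 211 kb before the peak and 149 kb after it were empty.

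The surroundings of the Antennapedia complex were not empty. The 360 kb before it held 26 peaks, of which 25 formed a single cluster from 2218281 to 2257988 with scores of 7.60 to 39.7. The 360 kb after it held 10 peaks, beginning with one from 2901378 to 2902560 that was 1183 bp wide and scored 38.0. Around the bithorax complex, the 320 kb before it held 2 peaks and the 320 kb after it held 13.

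**Figure D2:**
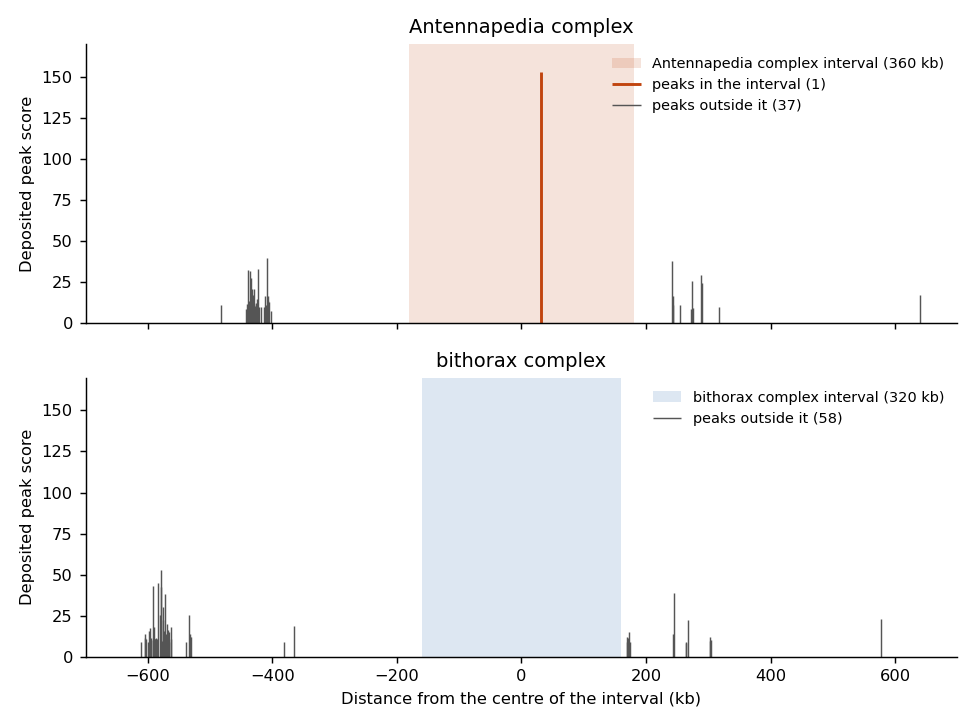
Deposited peak score (vertical axis) against distance from the centre of each interval in kb (horizontal axis) for the Antennapedia complex (top) and the bithorax complex (bottom), with the interval shaded and 1 line per peak. The Antennapedia interval holds 1 line, at a score of 153, while the bithorax interval holds none and has a group of 5 low peaks just beyond its high end.

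**Figure D3:**
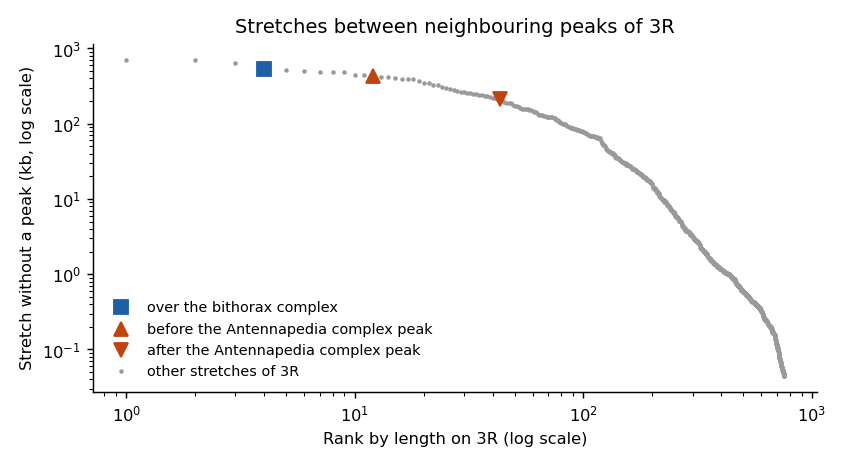
Length in kb of each of the 758 stretches between neighbouring 3R peaks (vertical axis, log scale) against its rank (horizontal axis, log scale), with the stretch over the bithorax complex as a square and those before and after the Antennapedia peak as triangles. The bithorax stretch ranks 4 at 533 kb, and the Antennapedia stretches stand at 433 and 210 kb.

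The single peak of the Antennapedia complex lay at 2690724 to 2691151 on 3R, 211 kb from the low end of the interval and 149 kb from the high end. If the complex runs from lab to Antp in release 5 as well, this is past the middle of the interval, on the Antp side. Its score of 153 was the second of the 759 on 3R, after a peak from 8331394 to 8331852 with 155, and the third of the 2970 on the chromosome arms. The other 3R peaks had a median score of 11.9 (interquartile range 9.72 to 16.7). The peak was 428 bp wide, against a median of 324 bp for the others (interquartile range 251 to 457 bp), so that 29.8% of 3R peaks were wider. These are single values and peaks of 1 list are not replicates, so neither was tested. The other 9 of the 10 highest scores on 3R belonged to peaks of 339 to 512 bp, a range that takes in this width.

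The score did not follow the form that most of the list had. As worked out from repeated values, most scores behave as the −log10 of a Poisson probability for a whole number of fragments over 1 genome-wide background of 43.9. The score of 153 missed this series by 0.266, where 0.01 was allowed, and lay between the values for 314 and 315 fragments. Off the series the background behind a score is not known, so no fold is given for this peak. Of the other 3R peaks 26.3% were off the series too, among them the peaks with scores of 155 and 126. Among the 7 other arm peaks scoring at least 100, a limit set with the values known, 5 were off it.

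The peak also stood alone. Its nearest neighbour was 210 kb away, and 5 of the 758 other 3R peaks (0.66%) were as far or farther from any peak. As the only peak of its interval, it could have no neighbour closer than about 149 kb, the distance to the high end. Its isolation thus follows in large part from the count of 1. On all chromosome arms, 26 peaks had no other within 200 kb, a distance chosen after this value was seen. The other 25 scored 8.51 to 50.8, with a median of 16.0, all below the 153 of the Antennapedia peak. On 3R, the others of this kind numbered 5, with scores of 8.51 to 40.8. Of the 7 other arm peaks scoring at least 100, also a limit set with the values known, 2 had no peak within 50 kb, at 148 kb on X (10817717 to 10819832) and 73.7 kb on 3R (26213896 to 26214407), and both of these were off the series as well. None of the 7 was narrower than the Antennapedia peak, with widths of 459 to 2116 bp.

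**Figure D4:**
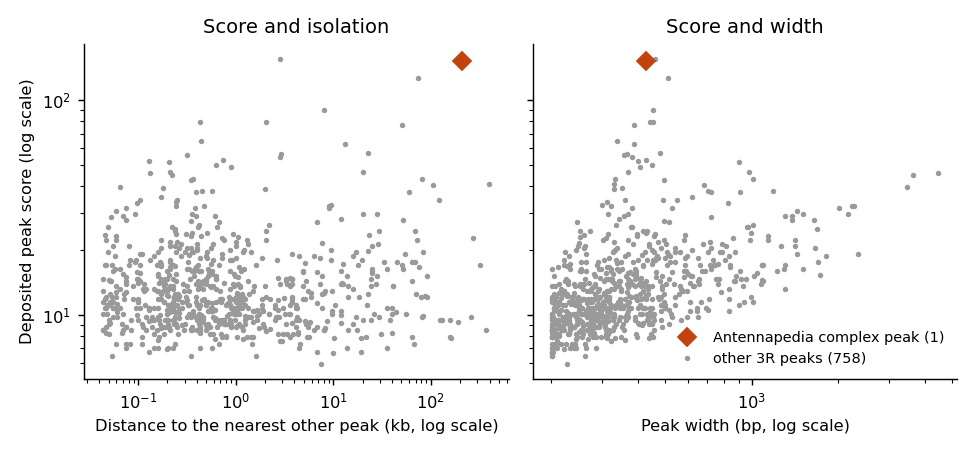
Deposited score of every 3R peak (vertical axes, log scale) against the distance to its nearest other peak in kb (left, log scale) and against its width in bp (right, log scale), with the Antennapedia complex peak as a diamond and the 758 other peaks as dots. The diamond stands at a score of 153, a distance of 210 kb and a width of 428 bp, among the highest scores and the longest distances while its width lies within the interquartile range of the others.

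Without a peak, a region had no enrichment past the authors' calling threshold, which is not given, and the lowest score listed on 3R was 5.93. In whole larvae, binding in few cells cannot be told apart from weak binding in many. How much of each interval reads could map to was not tested.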

How the data were processed

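Usp binding was measured by ChIP-seq in 2 ChIP and 2 input libraries. The authors deposited 1 peak list with a score per peak, called with MACS on FlyBase release 5 per the file headers. Per the submitters' processing notes, tools were MACS2, BWA and CASAVA (1.7.0.2, 1.7.0.3) and the build BDGP5, without roles. The sources used here do not give the threshold, the filters or any pooling of replicates. Peak numbers in the list ran to 3053 with 0 missing.

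Densities were compared by two-sided exact binomial tests given the lengths, with exact 95% intervals and Benjamini-Hochberg adjustment over 3 comparisons. The rest of 3R was the stretch between its outermost peaks less both intervals. Medians, windows and stretches were described without a test. The score background was fitted to 52 values shared by at least 10 peaks (mean error 0.00299), and peaks within 0.01 were taken as on the series. The named peaks were to be the highest scores, widest peaks, longest stretches, clusters of 3 or more peaks and densest bin of each complex, and the peaks nearest to each interval end. With 1 member, that peak and the nearest peaks outside remain. The members and lists were chosen with earlier results of these data known. Motif and protein sequences planned for were not analysed here.

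The score fit and the density test were tried on simulated data. The simulated counts took peaks as independent, unlike the clustered peaks of the list. Computing used scipy 1.17.1, numpy 2.4.6 and pandas 2.3.3 in Python 3.11.15, with matplotlib 3.10.9 for plots.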

Additional observations from a re-analysis of the deposited data

How the results depend on the processing

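No paired analysis was possible because no value per library is in the peak list, nor could a replicate be left out. By the exact binomial test the Antennapedia deficit (ratio 0.0992) lost its call in the top 50% of arm peaks by score (0.201, adjusted p = 0.16), the top 25% (0.396, adjusted p = 0.79), with peaks joined within 5 kb (0.284, adjusted p = 0.41) or 1 kb (0.175, adjusted p = 0.077), and joined within 5 kb with the interval widened by 20 kb (0.256, adjusted p = 0.41). The bithorax deficit (ratio 0) lost it in the top 50% (0, adjusted p = 0.078), the top 25% (0, adjusted p = 0.54), joined within 5 kb (0, adjusted p = 0.25), widened (0.498, adjusted p = 0.15), and joined and widened (0.284, adjusted p = 0.41, exact tests). Both complexes together (0.0525) lost it in the top 25% (0.209, exact p = 0.098) and joined and widened (0.269, exact p = 0.056). Joining and higher limits leave fewer items to test, and widening takes in 5 peaks. The density difference, 2.78 per Mb as Antennapedia minus bithorax, became -11.4 widened and -0.28 joined and widened, passing in none (exact tests, adjusted p of 1, 0.15 and 1). The stretch over the bithorax complex, 533 kb, was 537 kb in the top 50% and 610 kb in the top 25%, and that before the Antennapedia peak, 433 kb, was 436 and 438 kb. Of 44 alternative values, the other 26 changed neither direction nor call. Several of these could not change, among them the median score and width of a single peak. The same holds for the complexes compared at 1 peak against 0. Leaving out the joined region with the most peaks removed the only Antennapedia peak, so its ratio of 0 there was fixed in advance. The joined-and-widened setting, the pooled complexes and the stretches between flanking peaks were added after seeing the data. Values that could not be computed were those for the interval narrowed to the span of its peaks, the bithorax medians within the interval and stretches between member peaks, which 0 or 1 peak cannot give. With the interval widened, the bithorax median score was 11.5 and the median width 238 bp over 5 peaks.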
